A study of Homo sapiens with 6 samples.

Results

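The nuclear genes for mitochondrial ribosomal proteins were compared between 22Rv1-ABHD5 cells grown without and with doxycycline (Dox). The members were the genes of the count table whose symbol is MRPL or MRPS followed by a digit. This rule found 78 of the 27470 genes in the table, after 3 pseudogene rows and 1 antisense row were dropped. No expression value entered the rule, but the family was chosen with earlier results of these data known. By the known place of their proteins, 51 members belong to the large subunit and 26 to the small subunit, and the product of MRPS36 sits outside the ribosome. Of these genes, 77 passed the filter on low counts and were tested among 12233 genes.

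22Rv1 is a human castration-resistant prostate cancer line. All 6 libraries came from 22Rv1 cells that carry the pInducer20-ABHD5 lentiviral vector and were selected with G418, so both conditions share the transgene. ABHD5 is a coactivator of the triglyceride lipase ATGL, and its copy on the vector stands behind a Dox-inducible promoter. The Control libraries (n = 3) are cells without Dox and the OE libraries (n = 3) are cells with Dox, each harvested after 48 h per the series' design text. The Dox dose for these libraries and the number of integration sites are not given in the sources used here. No library of parent cells with Dox was used here, so an effect of Dox and an effect of ABHD5 cannot be told apart. The labels do not say whether replicates were separate cultures, so p-values measure the spread between these libraries.

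Mitochondria keep their own ribosomes, which make the few respiratory chain subunits that mitochondrial DNA encodes. The ribosomal RNA of these particles is transcribed inside the organelle, whereas every protein of both subunits is encoded in the nucleus, made in the cytosol and imported. Many of these proteins have a bacterial counterpart, and others arose with the mitochondrion. Dox is a tetracycline, a class of antibiotic that binds the small subunit of bacterial ribosomes and that can also block translation in mitochondria. The counts read mRNA of the nuclear genes only, and neither ribosomes nor mitochondrial translation were measured in these libraries.

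Libraries were made with a 3ʹ mRNA kit, so reads come from the end of each transcript. Reads counted on genes ranged from 3394672 to 5988151 without Dox and from 3460471 to 7271771 with Dox. The share of listed reads that were assigned to no gene was 32.5% to 34.6% without Dox and 35.6% to 39.5% with Dox. ABHD5 was at 63.5, 58.0 and 62.8 CPM without Dox, where CPM are counts divided by the library total and by its TMM normalization factor, and 125.9, 130.8 and 91.7 CPM with Dox. Its log2 fold change was 0.91 ± 0.15 (SE, edgeR adjusted p = 1.98e-04), in the direction that the labels give, and transgene mRNA that lacks the native 3ʹ end may be missed by these reads. Errors of log2 fold changes are standard errors here and below, and each adjusted p comes from the quasi-likelihood test of edgeR, with the Benjamini-Hochberg method over all genes tested. All 9 prostate luminal markers had over 3 reads in at least 1 library, with a summed level of 1442 to 1517 CPM without Dox and 898 to 991 CPM with Dox. The 2 leukocyte and 2 endothelial markers were at 3 reads or fewer in every library, with CD3E, PECAM1 and VWF at 0 in all. The summed level of the 3 fibroblast markers was 2.17 to 3.92 CPM without Dox and 3.62 to 7.62 CPM with Dox. The part of the luminal markers or of the reads on no gene in the results below was not tested.

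Genes for mitochondrial ribosomal proteins were on balance modestly lower with Dox. At an adjusted p under 0.05, 18 of the 77 tested members (23.4%) were lower and 0 were higher. Over all genes tested, 13.7% were lower and 11.9% higher by the same rule. Among the 8457 genes within the members' range of mean CPM, 15.8% were lower. The changes were small, since each of the 18 lay 20.4% to 35.6% below its mean without Dox and 0 members changed 2-fold. In RNA from whole cultures, fewer cells of a kind and less RNA per cell cannot be told apart. The count of lower members was 11 without replicate 1 without Dox, and 11 to 17 over the 6 fits that each left out 1 library.

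The shift was spread over the family rather than held by the genes that passed. Of the 77 tested members, 66 had a log2 fold change under 0, against 48.5% of all genes tested and 51.1% of genes in the members' range of mean CPM. The median over the members was -0.23, with quartiles of -0.35 and -0.06 and a range of -0.64 to 0.40, beside a median of 0.02 over all genes tested. All 3 libraries with Dox lay below all 3 without Dox for 29 members, an order that 20.5% of all genes tested and 22.9% of genes in that range of CPM showed. The opposite order held for 3 members, MRPS10, MRPL50 and MRPS31, and for 19.0% of all genes tested and 18.4% of genes in that range. The 18 called members had a median level of 126.6 CPM without Dox and a median standard error of 0.128 on the log2 scale, and the other tested members had 66.4 CPM and 0.149.

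**Figure D1:**
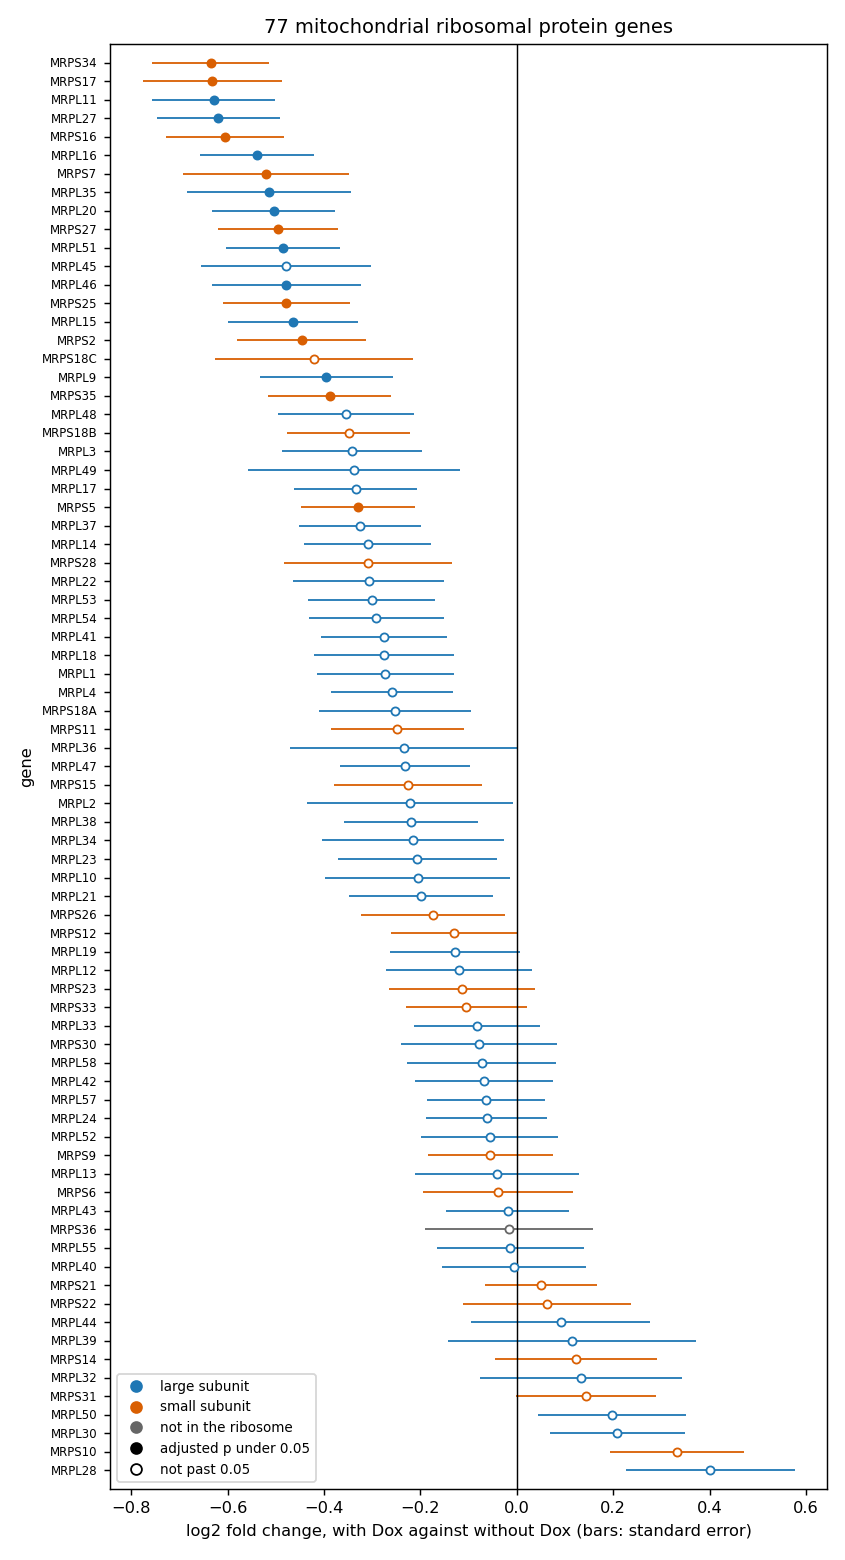
The 77 tested members in order of log2 fold change (x axis, with Dox against without Dox), with bars for the standard error, colour for the subunit and filled points for an adjusted p under 0.05. The points run from MRPS34 at -0.64 to MRPL28 at 0.40, 66 of them lie left of 0, and the 18 filled points are all on that side.

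The same shift was present in each library with Dox. Taken against each gene's mean over the libraries without Dox, the median log2 difference of the members was -0.21, -0.27 and -0.16 in replicates 1, 2 and 3 with Dox. In the libraries without Dox it was -0.0018, -0.0020 and 0.025. These values are small by construction, since the subtracted mean comes from the same libraries, so they are no yardstick for the shift. As a share of all reads on genes, the members took 0.738%, 0.723% and 0.738% without Dox and 0.676%, 0.653% and 0.687% with Dox. Each share with Dox was below each share without Dox. This share uses no normalization factor.

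Scaling set how many members passed. With library totals alone in place of TMM normalization, the median over all genes tested moved from 0.02 to 0.14, and the median over the members moved from -0.23 to -0.11. Under that scaling 49 of the 77 tested members had a log2 fold change under 0, where 66 had with TMM normalization. The share of all genes under 0 was not taken for library totals alone. At an adjusted p under 0.05, 9 of the 77 were lower and 2 higher with these totals, beside 9.29% and 17.8% of all genes tested. With upper-quartile normalization 12 of the 77 were lower and 0 higher, beside 11.4% and 14.3% of all genes tested. Under both scalings the share of lower members was nearer to that of all genes than with TMM normalization. The members' median minus that of all genes was -0.2482 on the log2 scale with library totals alone and -0.2481 with TMM normalization. A change of scaling moves all genes by nearly the same amount, so this difference could hardly change and is no test of the shift. Changes of single members are therefore read relative to the bulk of genes. The 9 genes that still passed were MRPS34, MRPS16, MRPS17, MRPS27, MRPL11, MRPL16, MRPL20, MRPL27 and MRPL51, which passed in each of 14 alternative settings.

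Of these 9 genes, 4 encode small subunit proteins. MRPS34, a protein found only in mitochondrial ribosomes, is encoded at chr16:1771890-1773150 of hg38. It was at 212.4, 216.8 and 191.8 CPM without Dox and at 133.5, 141.1 and 125.3 CPM with Dox. The lowest library without Dox stood well above the highest with Dox, with means of 207.0 ± 13.3 and 133.3 ± 7.89 CPM (SD, n = 3 each). The log2 fold change of MRPS34 was -0.64 ± 0.12 (edgeR adjusted p = 8.61e-04). MRPS16 and MRPS17 bind the ribosomal RNA of the small subunit and have bacterial counterparts. MRPS16 (chr10:73248843-73252693) was at 173.4, 169.3 and 184.5 CPM without Dox and at 125.3, 106.0 and 115.1 CPM with Dox. Its levels did not overlap and differed by -0.61 ± 0.12 on the log2 scale (edgeR adjusted p = 0.00136). The gene DNAJC9-AS1 on the opposite strand has an exon within 500 bases of the 3ʹ end of MRPS16, and reads of the pair could be mixed if strand was not used.

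MRPS17 (chr7:55951877-55956500) was at 74.2, 64.8 and 73.1 CPM without Dox and at 52.6, 44.8 and 40.2 CPM with Dox. The conditions were again separate, with a log2 fold change of -0.63 ± 0.14 (edgeR adjusted p = 0.00366). MRPS27 (chr5:72214953-72321717) encodes a pentatricopeptide repeat protein, a class of RNA-binding protein. It was at 161.2, 156.6 and 179.6 CPM without Dox and at 126.3, 119.9 and 107.3 CPM with Dox. Every library with Dox was below every library without Dox, with a log2 fold change of -0.50 ± 0.12 (edgeR adjusted p = 0.00692).

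The other 5 of the 9 genes encode large subunit proteins. MRPL11, which in bacteria sits at the base of the stalk that recruits translation factors, is encoded at chr11:66435075-66466738. It was at 122.0, 112.3 and 112.6 CPM without Dox and at 80.7, 76.3 and 67.8 CPM with Dox. The gap between the conditions exceeded the spread within either, and the log2 fold change was -0.63 ± 0.13 (edgeR adjusted p = 0.00140). MRPL27 (chr17:50367857-50373207) and MRPL16 (chr11:59806140-59810778) have bacterial counterparts that lie near the site of peptide bond formation. MRPL27 was at 130.1, 142.7 and 123.4 CPM without Dox and at 80.5, 94.9 and 82.6 CPM with Dox. MRPL16 was at 141.6, 144.8 and 140.2 CPM without Dox and at 99.4, 97.4 and 96.7 CPM with Dox. Replicates of MRPL16 lay close together in both conditions, at 142.2 ± 2.39 and 97.8 ± 1.40 CPM (SD, n = 3 each). The log2 fold change was -0.62 for MRPL27 and -0.54 for MRPL16 (standard errors 0.13 and 0.12, edgeR adjusted p = 0.00161 and 0.00262).

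MRPL51, a large subunit protein without a bacterial counterpart, is encoded at chr12:6491886-6493841. It was at 308.2, 312.6 and 312.3 CPM without Dox and at 235.5, 206.8 and 223.6 CPM with Dox. The libraries without Dox were nearly equal and all higher, with a log2 fold change of -0.49 ± 0.12 (edgeR adjusted p = 0.00571). MRPL20 (chr1:1401909-1407293) is the counterpart of a bacterial protein that binds ribosomal RNA early in assembly. It was at 119.1, 116.0 and 128.1 CPM without Dox and at 95.7, 79.3 and 81.3 CPM with Dox. Its conditions did not overlap, and the log2 fold change was -0.50 ± 0.13 (edgeR adjusted p = 0.00743).

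**Figure D2:**
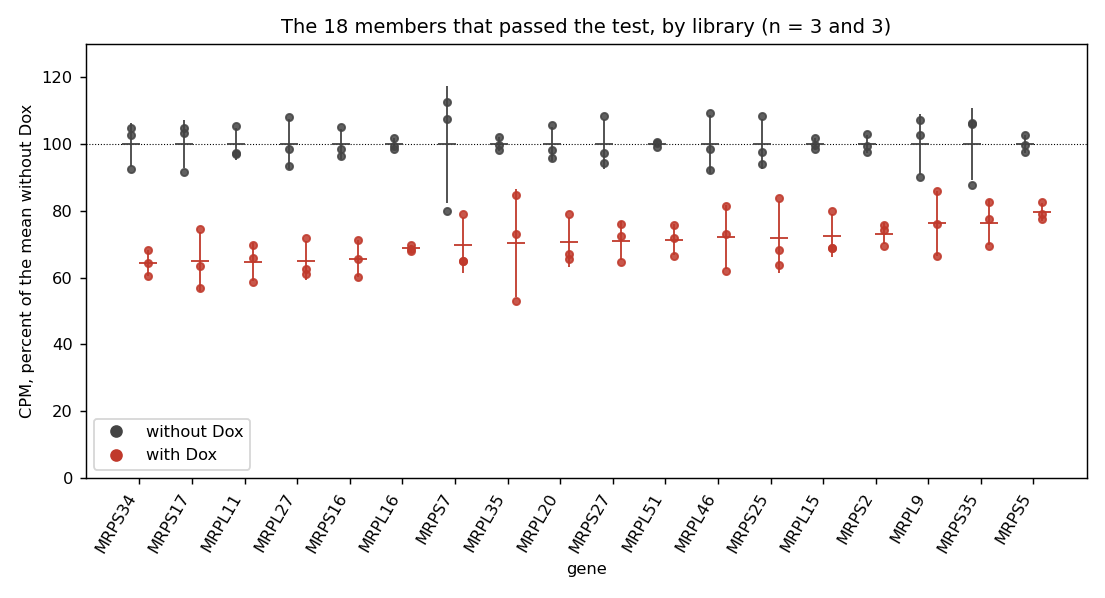
CPM of the 18 members that passed the test, as a percent of each gene's mean without Dox (y axis from 0), with 1 point per library (n = 3 and 3), a dash for the mean and a bar for the SD. For each gene the 3 points with Dox lie below the 3 points without Dox, and the means with Dox lie 20.4% to 35.6% below.

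A further 3 of the named members passed with less margin. MRPS25, a small subunit protein on chromosome 3, was at 207.4, 186.7 and 180.1 CPM without Dox and at 122.0, 160.6 and 130.4 CPM with Dox. Replicate 2 with Dox came nearest to the libraries without Dox. The log2 fold change of MRPS25 was -0.48 (edgeR adjusted p = 0.0132), and the call was lost without replicate 1 without Dox (-0.43, edgeR adjusted p = 0.0735) and without replicate 1 with Dox (-0.40, edgeR adjusted p = 0.0876). MRPS2, on chromosome 9, was at 65.8, 63.6 and 62.5 CPM without Dox and at 47.4, 44.5 and 48.5 CPM with Dox. Both sets of replicates were tight, and the log2 fold change was -0.45 (edgeR adjusted p = 0.0203). Leaving out replicate 1 without Dox or replicate 1 with Dox ended the call of MRPS2 (edgeR adjusted p = 0.0728 and 0.0611). MRPL15, a large subunit protein on chromosome 8, was at 66.4, 67.3 and 68.6 CPM without Dox and at 53.9, 46.5 and 46.4 CPM with Dox. Its libraries with Dox were all lower, with a log2 fold change of -0.46 (edgeR adjusted p = 0.0176), and the call was lost without replicate 3 without Dox (edgeR adjusted p = 0.0526).

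The last 6 called members were MRPL46, MRPS35, MRPL35, MRPS7, MRPL9 and MRPS5. Their log2 fold changes ran from -0.52 for MRPS7 to -0.33 for MRPS5, and their edgeR adjusted p from 0.0309 for MRPL46 to 0.0481 for MRPS5. All of them kept their direction, but MRPL46, MRPS35 and MRPL35 passed in 8 of 14 alternative settings, MRPS7 in 7, MRPL9 in 4 and MRPS5 in 1. Without replicate 1 with Dox the edgeR adjusted p of these members was 0.0772 for MRPL46, 0.0938 for MRPS35, 0.174 for MRPL35, 0.118 for MRPS7 and 0.0997 for MRPS5. MRPL9 kept its call in that fit and lost it without any 1 of the other 5 libraries, with an edgeR adjusted p of 0.147 without replicate 3 with Dox. MRPS7 has an exon of MIF4GD on the opposite strand within 500 bases of its 3ʹ end.

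The 3 members next outside the threshold were also lower in value. MRPS18B was at 354.2, 345.8 and 281.7 CPM without Dox and at 268.1, 263.5 and 238.7 CPM with Dox. The conditions did not overlap, but replicate 3 without Dox came close to the libraries with Dox, and the log2 fold change was -0.35 (edgeR adjusted p = 0.0541). Without replicate 3 without Dox it passed (-0.45, edgeR adjusted p = 0.0269). MRPL45, which ties the ribosome to the inner membrane, was at 67.4, 51.8 and 82.4 CPM without Dox and at 58.3, 48.7 and 39.7 CPM with Dox. Its conditions overlapped, and its log2 fold change of -0.48 (edgeR adjusted p = 0.0561) passed without replicate 2 without Dox (-0.64, edgeR adjusted p = 0.0161) and without replicate 1 with Dox (-0.63, edgeR adjusted p = 0.0413). MRPL17 had a log2 fold change of -0.33 (edgeR adjusted p = 0.0617) and passed without replicate 3 with Dox (-0.42, edgeR adjusted p = 0.0297).

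By subunit, 9 of 25 tested small subunit members (36%) and 9 of 51 large subunit members (17.6%) were lower. Over all genes tested 13.7% were lower, and 15.8% of genes within the members' range of mean CPM. The medians were close, at -0.25 for the small subunit and -0.23 for the large subunit. Large subunit proteins with a bacterial counterpart had 7 of 30 lower and those without one had 2 of 21 lower, with medians of -0.23 and -0.22. In the small subunit, 5 of 15 tested genes with a bacterial counterpart and 4 of 10 without one were lower, with medians of -0.25 and -0.26. The differences between these shares were not tested. With library totals alone, 4 small and 5 large subunit members were lower, beside 9.29% of all genes tested. The 18 called members lie on 13 chromosomes, and the 78 members on 21.

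Members with a special place in the ribosome, or outside it, had these values. The 3 paralogs MRPS18A, MRPS18B and MRPS18C all resemble 1 bacterial protein, and of them MRPS18C alone was counted above as having a bacterial counterpart. MRPS18A sits in the large subunit. MRPS18A had a log2 fold change of -0.25 and MRPS18C of -0.42, neither past the threshold (edgeR adjusted p = 0.264 and 0.145). The stalk genes MRPL10 and MRPL12, the second of which also encodes a partner of the mitochondrial RNA polymerase, had -0.21 and -0.12 (edgeR adjusted p = 0.475 and 0.611). MRPS30, whose protein is in the large subunit, had -0.08 and MRPS36, a component of the 2-oxoglutarate dehydrogenase complex, had -0.02 (edgeR adjusted p = 0.764 and 0.960). The signs of MRPL12, MRPS30 and MRPS36 turned with library totals alone, to 0.0031, 0.043 and 0.11, and that of MRPS36 also with upper-quartile normalization (0.039) and with at least 10 counts in every library (0.0077). MRPL12 was also above 0 without replicate 1 without Dox (0.0058) and MRPS30 without replicate 3 with Dox (0.056). MRPS36 was above 0 without replicate 1 (0.0021) or 3 (0.13) without Dox and without replicate 2 with Dox (0.11).

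Read depth differed widely among the members. MRPL33 had the most reads, 10468 over the 6 libraries, and a log2 fold change of -0.08 (edgeR adjusted p = 0.692), which was 0.039 with library totals alone. MRPS35, which passed, and MRPS18B, which did not, followed with 8115 and 8082 reads. The fewest reads among tested members were 384 for MRPL49, 432 for MRPL36 and 443 for MRPL2, whose log2 fold changes were -0.34, -0.23 and -0.22 (edgeR adjusted p = 0.285, 0.514 and 0.490). Their standard errors were 0.22, 0.24 and 0.21 on the log2 scale, wider than the median of 0.149 over the tested members that did not pass. An exon of another gene lies within 500 bases of the 3ʹ end of MRPL33 (BABAM2, same strand) and of MRPL49 (SYVN1, opposite strand). For MRPL33 this is the end of the whole annotated gene, chr2:27771717-27988087, and where its main transcript ends was not checked. MRPS24 was not tested. It had 0 reads in each library without Dox and 2, 0 and 0 reads with Dox, below a limit of 3 reads per library. URGCP-MRPS24, a readthrough gene on the same strand with an exon within 500 bases of the 3ʹ end of MRPS24, had 0 reads in all libraries. Reads that lie on both genes could be among the ambiguous reads. Whether MRPS24 was expressed therefore cannot be told from these counts.

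The highest fold changes in the family belonged to MRPL28 and MRPS10, which were picked after their values were seen. MRPL28 was at 55.4, 42.8 and 39.3 CPM without Dox and at 53.1, 50.9 and 75.3 CPM with Dox. The conditions overlapped, and replicate 3 with Dox stood above the rest. Its log2 fold change of 0.40 was not past the threshold (edgeR adjusted p = 0.105) and passed without replicate 2 with Dox (0.50, edgeR adjusted p = 0.0438) and with library totals alone (0.52, edgeR adjusted p = 0.0368). MRPS10 was at 67.4, 66.1 and 57.4 CPM without Dox and at 68.7, 86.0 and 84.7 CPM with Dox. All libraries with Dox were higher, the first of them by little, and the log2 fold change of 0.33 (edgeR adjusted p = 0.0899) passed with library totals alone (0.45, edgeR adjusted p = 0.0226).

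Promoter sequences were searched for letters that factors of mitochondrial gene expression are known to bind. NRF1 and the ETS factor GABP bind the promoters of many nuclear genes for mitochondrial proteins, YY1 binds a site often found just after the start of a gene, and MYC binds the E-box. RefSeq windows (GRCh38.p14) from 250 bases before to 50 bases after the start matched 69 members. On either strand, the ETS letters CCGGAAGT were in 16.5% of 85 member windows, 7.58% of the windows of tested genes and 4.14% of all 35116 windows. The YY1 letters AAGATGGCG were in 15.3%, 3.54% and 1.75%, the NRF1 letters (GCGCA and GCGC with any base between them) in 11.8%, 10.2% and 5.78%, and the E-box CACGTG in 10.6%, 9.45% and 7.26%. Of the 16 called members with a window, 5 held the ETS letters, 1 the YY1 letters, 1 the E-box and 0 the NRF1 letters. Of the 53 other members with a window, 7 held the ETS letters, 12 the YY1 letters, 8 the E-box and 9 the NRF1 letters. These 53, and the 12 with YY1 letters, include MRPS24, which was not tested and could not be called. These shares were not tested against each other, and a match of letters is not a bound site.

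The 5 called members with ETS letters were all among the 9 that passed in each alternative setting, an overlap seen after the search. Their stretches of 30 bases around the match are shown to compare the letters and their neighbours, read 5ʹ to 3ʹ along the gene with the match in capitals. In MRPS34 (chr16:1773136-1773165, minus strand), MRPL16 (chr11:59810767-59810796, minus) and MRPL51 (chr12:6493364-6493393, minus) the match is the reverse complement. In MRPL27 (chr17:50373218-50373247, minus) and MRPL20 (chr1:1407319-1407348, minus) it is forward, and MRPL27 has a second match nearer its start. The MRPS10 stretch (chr6:42217833-42217862, minus) shows the YY1 letters in a member that was not lower. Of the tested members with YY1 letters, MRPS10, MRPL50 and MRPL32 had a positive log2 fold change and all others a negative one. The MRPL17 stretch (chr11:6683402-6683431, minus) shows the NRF1 letters in a member just outside the threshold. Not shown are the ETS letters of 7 members that were not called, with log2 fold changes from -0.34 (MRPL3) to 0.06 (MRPS22). The YY1 letters of MRPL46, which was called (-0.48), are not shown either.
MRPS34: ctcttccggtgACTTCCGGccggaccgctg
MRPL16: gagtgaacacaACTTCCGGccccactgagc
MRPL51: ggcgctccaaaACTTCCGGcaggcggaccg
MRPL27: ccacgcagggcCCGGAAGTagatctcctga
MRPL20: cgaccttcgccCCGGAAGTatcgcaggggc
MRPS10: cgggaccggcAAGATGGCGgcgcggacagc
MRPL17: aggctctgatGCGCATGCGCaaacacgttc

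Genes that build, load and regulate the mitochondrial ribosome were read from lists compiled by hand, in which 92 of 95 genes were tested and 12 passed in either direction, beside 25.5% of all genes tested. The counts of each list below stand against 13.7% lower and 11.9% higher over all genes tested. The 3 that were not tested were PTCD1, PDF and PPARGC1A. Of the 5 other ribosomal proteins without an MRPL or MRPS symbol, GADD45GIP1 alone was lower (-0.39, edgeR adjusted p = 0.0492), a call that passed in 3 of 14 alternative settings and was lost without any 1 of 5 libraries, with the value closest to 0 without replicate 2 without Dox (-0.27, edgeR adjusted p = 0.218). Among 27 tested assembly genes, 2 were lower and 1 higher, with a median of -0.09. MTERF4, which works with NSUN4 in joining the subunits, was at 48.6, 40.3 and 49.9 CPM without Dox and at 66.5, 99.6 and 80.1 CPM with Dox. All libraries with Dox were above all without, and MTERF4 rose by 0.82 on the log2 scale (edgeR adjusted p = 0.00105) and passed in all 14 alternatives. MRM2, a methyltransferase of the large ribosomal RNA, had -0.46 (edgeR adjusted p = 0.0163), which passed neither without replicate 1 without Dox (edgeR adjusted p = 0.0701) nor without replicate 1 with Dox (edgeR adjusted p = 0.0990). RPUSD4, which modifies the same RNA, had -0.50 (edgeR adjusted p = 0.0421), which was -0.34 without replicate 3 with Dox (edgeR adjusted p = 0.166), and passed in 5 of 14 alternatives.

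Of 17 tested translation factors and mRNA-handling proteins, 1 was lower and 1 higher, with a median of -0.03. SLIRP, which with LRPPRC stabilises mitochondrial mRNA, was at 260.4, 248.4 and 293.4 CPM without Dox and at 194.6, 164.5 and 182.6 CPM with Dox. The libraries of SLIRP did not overlap, and its log2 fold change of -0.57 (edgeR adjusted p = 0.00277) passed in all 14 alternatives. GFM2, a factor of ribosome recycling, rose by 0.51 on the log2 scale (edgeR adjusted p = 0.0252). It did not pass without replicate 1 or 2 without Dox (edgeR adjusted p = 0.116 and 0.0645) or without replicate 1 or 3 with Dox (edgeR adjusted p = 0.0673 and 0.0575).

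Of 20 enzymes that charge mitochondrial tRNA, 3 (15%) were lower, near the 13.7% of all genes tested, and 0 were higher, with a median of -0.15. FARS2, which loads phenylalanine, was at 28.47, 27.91 and 31.07 CPM without Dox and at 18.05, 18.37 and 21.41 CPM with Dox. The conditions were apart, and its log2 fold change was -0.59 (edgeR adjusted p = 0.0166), lost without replicate 3 without Dox (edgeR adjusted p = 0.0641) and without replicate 1 with Dox (edgeR adjusted p = 0.0637). QRSL1, a subunit of the amidotransferase that makes glutaminyl-tRNA, had -0.53 and LARS2, which loads leucine, -0.42 (edgeR adjusted p = 0.0282 and 0.0395). QRSL1 passed in 9 of 14 alternatives and LARS2 in 4, and without replicate 2 without Dox their edgeR adjusted p was 0.110 and 0.102.

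Among 15 genes of mitochondrial DNA upkeep and transcription, TFAM was the 1 that was lower. TFAM, which packages mitochondrial DNA and starts its transcription, was at 116.5, 109.2 and 137.6 CPM without Dox and at 91.5, 91.8 and 70.7 CPM with Dox. Replicate 3 was the highest library without Dox and the lowest with Dox. The log2 fold change of TFAM was -0.53 (edgeR adjusted p = 0.0112), and without replicate 3 without Dox it was -0.42 (edgeR adjusted p = 0.0661). Of 8 tested regulators of mitochondrial biogenesis, 2 were lower. PPRC1, a coactivator related to PGC-1, had -0.70 (edgeR adjusted p = 0.0196), lost without replicate 1 without Dox (edgeR adjusted p = 0.0849) and without replicate 3 with Dox (edgeR adjusted p = 0.0878). MYC had -0.71 (edgeR adjusted p = 0.0349), lost without replicate 1 or 3 without Dox (edgeR adjusted p = 0.0676 and 0.178) and without replicate 2 with Dox (edgeR adjusted p = 0.0965).

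For comparison, 2 larger groups of related genes were set beside the members. Of 84 tested genes for cytosolic ribosomal proteins, which make up the ribosomes outside mitochondria, 7 were lower (8.33%) and 1 higher (1.19%), with a median of 0.0070. The second group held 74 tested nuclear genes for subunits of the respiratory chain and of ATP synthase. Of these, 13 were lower (17.6%) and 2 higher (2.70%), with a median of -0.10. The lower genes included ATP5G2, ATP5I, ATP5L and ATP5O of ATP synthase. The median of the mitochondrial ribosomal protein genes, -0.23, was the lowest of these 3, and the difference between the groups was not tested. Near it were the medians of the 5 other mitochondrial ribosomal proteins (-0.21) and of the 8 tested regulators (-0.22).

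**Figure D3:**
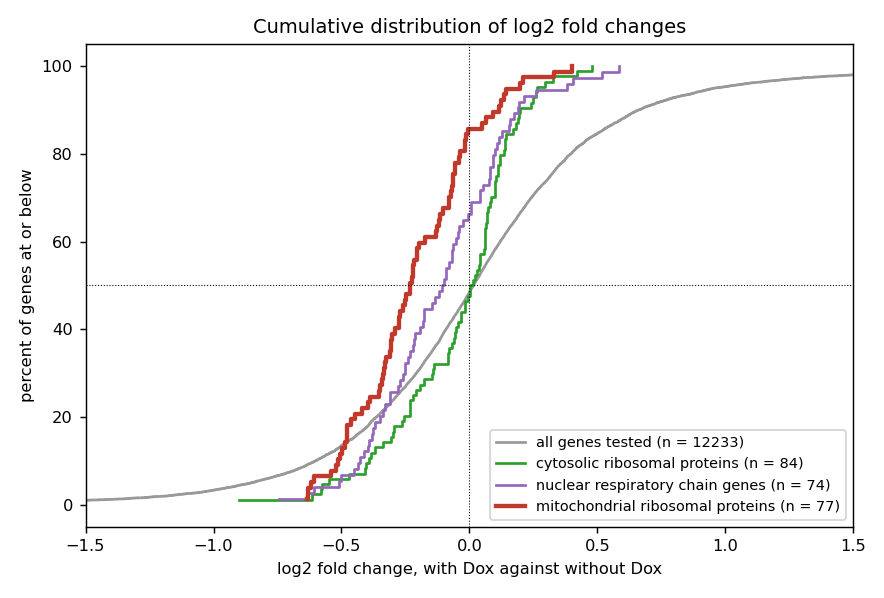
Cumulative percent of genes (y axis) at or below each log2 fold change (x axis, with Dox against without Dox, the tails of all genes cut off) for the 77 members, 84 cytosolic ribosomal protein genes, 74 respiratory chain genes and all 12233 genes tested. The respiratory chain genes here include those of ATP synthase. The line of the members crosses 50% at -0.23, left of the respiratory chain genes at -0.10 and of the cytosolic ribosomal protein genes and all genes near 0.

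The overlap of genes was taken over the last 500 bases of each whole annotated gene, which need not be where its main transcript ends. Only other genes of the count table were considered. Gene overlap bore on 14 members, in which another gene has an exon within 500 bases of the 3ʹ end, on the same strand in 3 and on the opposite strand in 11. Without these 14, 16 of 64 members were lower (25%) and 0 higher, with a median of -0.23. The annotation also holds 80 pseudogenes named after 36 members, and reads that such copies could take were not traced.

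**Figure D4:**
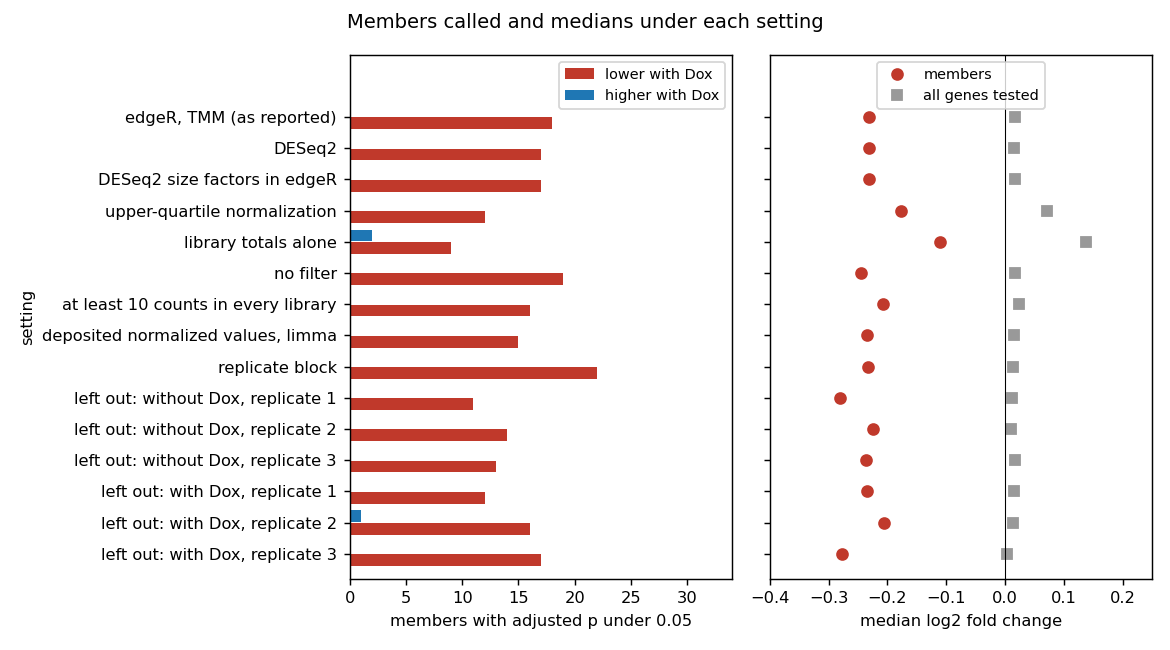
Number of members with an adjusted p under 0.05 (left, bars from 0) and median log2 fold change of the members and of all genes tested (right), for the reported fit and the 14 alternatives. The members' median stays left of the median of all genes in each setting, and the number of lower members runs from 9 with library totals alone to 22 with the replicate block. Scaling alone shifts both medians nearly alike.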

How the data were processed

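Per the labels and methods, 100 bp single-end reads of 3ʹ mRNA libraries were processed with CASAVA 1.8.2, FastQC, STAR (hg38) and HTSeq. Methods name the REV kit and labels the FWD kit, and the annotation and strand setting are not given in the sources used here. The authors deposited raw counts per gene for all 6 libraries, and a normalized signal per library by a method not given in the sources used here, used only as an alternative (27 rows missing there, limma 3.58.1 with trend on log2 of value + 1). Reads on no gene and ambiguous reads (3.05% to 3.37%) were kept out of library sizes. Counts were tested with edgeR 4.0.16 in R 4.3.3 (filterByExpr, TMM, quasi-likelihood test, adjusted p under 0.05), without covariates. DESeq2 1.42.0 was an alternative. CPM were scaled by TMM and not divided by length, so levels are not compared between genes. A limit of 3 reads is 0.413 to 0.884 CPM, for counting error only.

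Replicates differed beyond sampling noise (chi-square per degree of freedom 4.21 to 12.6). Scripts were tested on simulated data. Members and lists were chosen with earlier results of these data known. Named were the 12 called members with the smallest adjusted p, the 3 next outside, the 3 with most and 3 with fewest reads, untested members, the MRPS18 paralogs, MRPL10, MRPL12, MRPS30, MRPS36 and up to 3 called genes per list and direction. Others were named after their values were seen. Gene positions are from GENCODE 44. Mitochondrially encoded genes and protein sequences were not analysed here. Alternatives were other normalizations, filters and tests, the replicate number as a block, and fits that left out 1 library.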

Additional observations from a re-analysis of the deposited data

Results flagged for a closer look

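Outside the counts on genes, the share of listed reads assigned to no gene was 35.6% to 39.5% in the libraries with Dox, above the 32.5% to 34.6% without Dox. Ambiguous reads made up 3.24% to 3.37% with Dox and 3.05% to 3.21% without Dox. Both were singled out because each library with Dox lay above each library without Dox in reads that no comparison used, and their part in the values of the mitochondrial ribosomal protein genes was not tested.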

How the results depend on the processing

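The count of 18 lower members fell to 9 with library totals alone, and was 12 with upper-quartile normalization, 15 with the deposited normalized values, 16 with at least 10 counts in every library, 17 with DESeq2 or its size factors and 19 without a filter. Leaving out each library gave 11 (without replicate 1 without Dox) to 17. Over all genes tested, 13.7% were lower with TMM normalization, 9.29% with library totals alone and 11.4% with upper-quartile normalization. Of the 18, 9 passed in each of the 14 alternatives. Higher members numbered 0, 2 with library totals alone and 0 to 1 with each library left out (1 without replicate 2 with Dox). The 12 called list genes became 6 with library totals alone and 5 to 14 with each library left out, 5 of them without replicate 1 without Dox and 6 without replicate 3 without Dox or replicate 1 with Dox, in alternatives added after the data were seen.

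The members' median of -0.23 moved to -0.18 with upper-quartile normalization and -0.11 with library totals alone, and to -0.28 to -0.21 with each library left out. Large subunit members gave the same -0.18 and -0.11, and small subunit members -0.19 and -0.13, with -0.30 to -0.20 across left-out libraries. Members with a log2 fold change under 0 numbered 66, and 49 with library totals alone. Among the members named by the rule, signs turned with library totals alone for MRPL33 (0.039), MRPL12 (0.0031), MRPS30 (0.043) and MRPS36 (0.11). MRPS36 was also above 0 with upper-quartile normalization (0.039) and at least 10 counts in every library (0.0077), and ran from -0.19 to 0.13 with each library left out, at 0.11 when replicate 2 with Dox was dropped and 0.0021 when replicate 1 without Dox was dropped. MRPL12 ran from -0.26 to 0.0058 (without replicate 1 without Dox) and MRPS30 from -0.18 to 0.056 (without replicate 3 with Dox). The median of all genes moves with the scaling by construction, and the other causes were not tested.

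Whether libraries of the same replicate number were pairs was not resolved. Across genes, the deviations of a library without Dox and the one of its number with Dox correlated with r of -0.0096, 0.226 and 0.0855. The 0.226 of replicate 2 was the highest of all pairs, and not every library correlated best with its own number. With the replicate block 22 members were lower, the 18 among them, and 3537 genes were called in all against 3125 without it.

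Tested members had 384 to 10468 reads over the 6 libraries, and those with the fewest had the wider errors given above.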

Other observations

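Reads of the mitochondrial ribosomal RNA itself were not analysed here. The count table holds 10 genes of the MTRNR2L family, nuclear copies nearly identical to part of the gene for the large mitochondrial ribosomal RNA, so the source of their reads cannot be told apart. These 10 genes took 1.43%, 1.53% and 1.32% of reads on genes without Dox and 1.87%, 1.93% and 1.15% with Dox, so replicate 3 with Dox was the lowest of all and the other 2 with Dox the highest. MTRNR2L1 was at 4039, 3936 and 3594 CPM without Dox and at 4548, 4127 and 2776 CPM with Dox, with a log2 fold change of -0.01 (edgeR adjusted p = 0.960). MTRNR2L2 had 0.28 and MTRNR2L8 -0.08 (edgeR adjusted p = 0.255 and 0.799).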
